A study of Mus musculus with 8 samples.

Results

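The transcripts of passage-8 cells, cells grown out to passage 8 from sorted mouse heart cells, were set against those of primary CD45-negative cells, with 2 arrays in each group, so that 4 of the 8 arrays of the series were compared. The groups were taken from the sample descriptions. The study grew cells from the left atrial appendage, a small pouch of the left atrium, under 2 digestions, with left ventricular wall as a control, and this comparison asks how the cultured derivatives of CD45-positive cells stand to primary cells that lack CD45. CD45-negative cells were primary cells sorted as c-kit positive and CD45 negative from explants digested strongly, with trypsin at 0.25% and collagenase D at 0.1%. Passage-8 cells were derived from primary cells sorted as positive for both c-kit and CD45, which grew after a weak digestion with trypsin at 0.05% and the same collagenase. These CD45-positive cells are given beside them where they help, and the labels do not state the digestion for the passage-8 cells themselves. All donors were C57BL/6 mice of 8 to 12 weeks with no engineered allele named, and the explants shared 1 medium with serum. The labels name no sex, do not say whether animals were pooled or whether the passage-8 cells are 1 clone, and do not trace replicates to different cultures or animals, so every p-value speaks for the spread of these samples alone, which may be technical.

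c-kit is the receptor of stem cell factor and is carried by blood progenitors, mast cells and some rare cells of the heart, while CD45 is the phosphatase on the surface of white blood cells. Adult heart holds fibroblasts and pericytes, which carry Thy1 and platelet-derived growth factor receptors, and an outer lining, the epicardium, a mesothelium marked by keratins, uroplakins and mesothelin. Long culture is known to select for cells that escape growth arrest, and the Cdkn2a and Cdkn2b locus, which encodes inhibitors of the cyclin-dependent kinases, is a main brake on such growth.

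All values are log2 signals relative to the 75th percentile of the array, so 0 marks a transcript at that percentile, and the dimmest were called not well above background by the scanner software. A pair of values is CD45-negative replicate 1 and 2, or, after "against", passage-8 replicate 1 and 2. Rose and fell mean higher and lower in passage-8 than in CD45-negative cells, which are not the cells they were grown from, and both words are kept for genes that passed the test. The values compare shares of the signal, and fewer cells of a type and less RNA per cell cannot be told apart. Kit, the gene of c-kit, was at -6.33 and -1.54 on CD45-negative replicates 1 and 2, with the first not well above background, and at -5.67 and -5.54 on the passage-8 arrays (limma adjusted p = 0.473). Ptprc, the gene of CD45, was at -5.51 and -3.33 in CD45-negative cells, again not well above background on replicate 1, and at -5.56 and -5.16 in passage-8 cells (limma adjusted p = 0.400). Kit, by which the primary cells were sorted, was thus above background on replicate 2 alone of the CD45-negative arrays, and Ptprc lay far below its mean of 1.99 in CD45-positive cells on all 4 arrays. All 8 arrays were on 1 slide scanned on 1 day, so no split by batch was possible.

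The CD45-negative replicates differed far more from each other than the passage-8 replicates did. Over 22753 genes the SD between replicates was 0.668 log2 units for the CD45-negative pair and 0.264 for the passage-8 pair, and 18.2% against 3.14% of genes differed by at least 1 log2 unit. The genes highest on replicate 2 over replicate 1 included macrophage genes: the integrin Itgax was at 1.56 against -3.93, the inhibitory receptor Lilrb4a at 4.17 against -2.08, and the glycoprotein Gpnmb at 4.21 against -1.47. Serpinb2, a protease inhibitor of activated macrophages, and the peptide hormone gene Cck also stood higher there, at 5.17 and 3.25 against -2.60 and -4.34. On replicate 1 the mitochondrial carriers Ucp3 and Ucp2 were at 2.33 and 2.14 against -2.53 and -2.33, and Angpt1, a ligand that steadies vessels, was at 1.26 against -2.51. Each replicate is therefore given apart below.

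Over 18474 genes well above background on all 6 culture arrays, the root mean square distance of the passage-8 arrays was 1.02 to 1.09 log2 units from the CD45-negative arrays and 1.23 to 1.26 from the CD45-positive arrays. The CD45-negative replicates were 0.775 apart and the passage-8 replicates 0.215. No test is given for these distances.

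In passage-8 cells some imprinted growth genes, most tested Hox genes and many mesothelial genes were higher, and a part of the stromal, vascular wall and inflammatory genes was lower. Of the 18 Hox genes that rose 13, with several mesothelial ones, entered the test only through passage-8 cells and had to be higher. Some vascular wall genes entered it only through CD45-negative cells and had to be lower, so these statements are a description. Of 22753 genes tested, 3174 passed the limma test, which asks for a Benjamini-Hochberg adjusted p under 0.05 and a difference of at least 1 log2 unit, or 13.9% of those tested. Of these, 1593 were higher in passage-8 cells (7.00%) and 1581 lower (6.95%). Each count of a gene list below is to be read beside these shares, and a list near them is not set apart. Among the 3174 genes, 2757 differed by at least 1 log2 unit from each CD45-negative array taken alone. Of the 3174, 252 differed by less from replicate 1 and 162 by less from replicate 2. For 3171 of the 3174 the passage-8 and CD45-negative arrays did not overlap, so a lack of overlap adds nothing to a call. The number passing fell to 817 or 842 without passage-8 replicate 1 or 2 and to 1564 without either CD45-positive array, and it rose to 4509 or 3967 without CD45-negative replicate 1 or 2. With the spread taken from the 4 compared arrays alone it was 181, and 169 of 229 genes chosen to be named lost their call, so most p-values here rest on the spread of the CD45-positive and left ventricular arrays too. Without passage-8 replicate 1 or 2, 108 or 101 of the 229 lost it. Of 827 passing genes with several probes, 509 had a probe that did not pass and 9 had a probe that passed in the opposite direction.

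**Figure D1:**
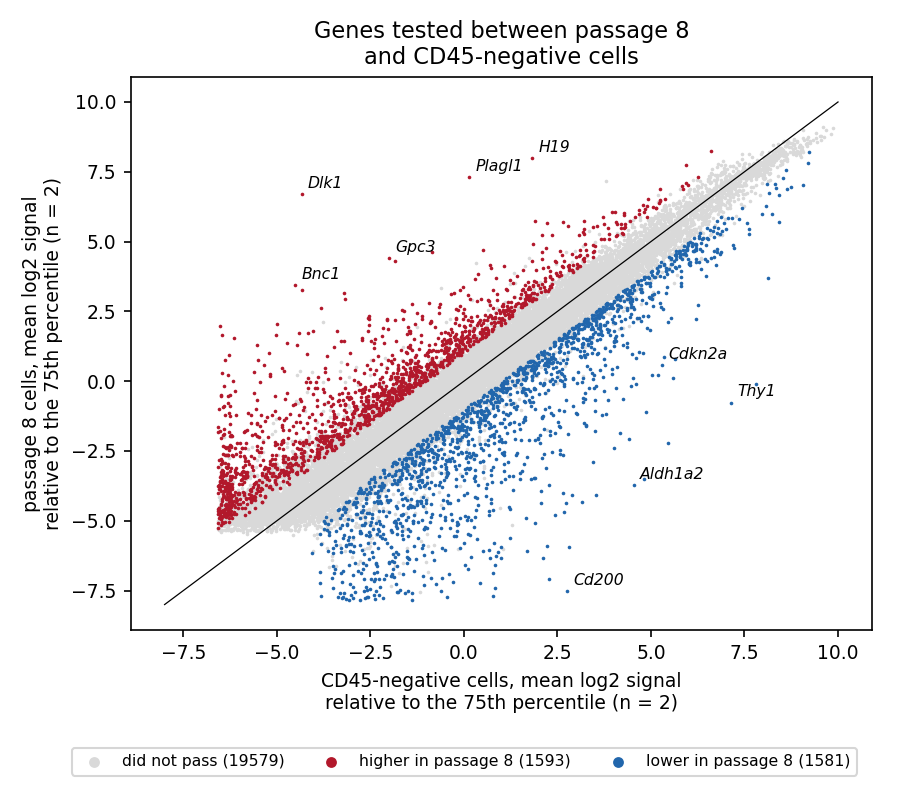
Mean log2 signal relative to the array's 75th percentile in CD45-negative cells (horizontal axis) and passage-8 cells (vertical axis), 2 arrays each, where each point is 1 of the 22753 genes tested, red for the 1593 higher and blue for the 1581 lower in passage-8 cells, and the line marks equal signal. Dlk1, Bnc1 and Plagl1 lie farthest above the line among the labelled genes, and Thy1, Aldh1a2 and Cd200 far below it.

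Imprinted genes were among those that rose most. Such genes are read from the maternal or the paternal copy alone, many steer fetal growth, and Plagl1, a zinc finger factor, is known to activate several others. Plagl1 was at -0.24 and 0.54 on CD45-negative replicates 1 and 2 and at 7.35 and 7.25 on the passage-8 arrays. Both passage-8 values lay far above both others, 186-fold over replicate 1 and 108-fold over replicate 2 (log2 difference 7.15, SE 0.30, limma adjusted p = 0.000692). Its 4 probes disagree on the size, with log2 differences of 1.12, 2.62, 7.15 and 7.17. Dlk1, a membrane protein of immature cells that relates to Notch ligands, was at -4.34 and -4.32 in CD45-negative cells, well above background on replicate 1 alone, and at 6.70 and 6.68 in passage-8 cells. The groups were far apart (log2 difference 11.03, SE 0.29, limma adjusted p = 0.000421).

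Igf2, a fetal growth factor, was not well above background on either CD45-negative array (-5.51 and -5.54) and stood at 1.36 and 1.21 in passage-8 cells, at least 59.5-fold higher. Such a bound compares the mean of the brighter group with a floor for the dimmer one, which on each array is the faintest signal called well above background, or the probe's reading if that is larger, averaged over its arrays. H19, the noncoding RNA beside Igf2, was already bright in CD45-negative cells at 2.02 and 1.62 and reached 7.98 and 7.999 (71.9-fold, limma adjusted p = 0.00105). Its 7 probes had log2 differences of 1.75 to 8.52. Cdkn1c, a cyclin-dependent kinase inhibitor that restrains growth, rose, at -2.49 and -2.61 against 2.20 and 2.29 (27.8-fold, limma adjusted p = 0.000600). Passage-8 cells thus carried transcripts of both a growth factor and a growth brake of this network. In the CD45-positive source cells, Plagl1, Dlk1, Igf2, H19 and Cdkn1c had mean levels of -0.77, -5.16, -6.54, -0.20 and -1.83.

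Of 27 imprinted genes listed, 20 were tested, 6 rose and 0 fell (5 rose without either passage-8 array). The sixth riser, Zdbf2, had a log2 difference of 1.82 and turned to -0.55 with normexp background correction. Dlk1, Igf2 and Zdbf2 entered the test only through passage-8 cells, so they had to be higher to be tested. Over the 16 members well above background on all 4 arrays, 3 rose and 0 fell, with a median of 0.087. Of the 20 tested, 14 did not pass, and the median over the 20 was 0.25, beside -0.011 over all genes tested. Among them were Meg3, the noncoding partner of Dlk1, at 4.68 and 5.51 against 5.09 and 5.001, the growth factor receptor gene Igf2r at 4.37 and 4.11 against 3.77 and 3.64, and Grb10, an adaptor that dampens insulin signalling, at -0.17 and -0.17 against -0.41 and -0.32. Dlk1 was far higher while Meg3, of the same imprinted domain, had a log2 difference of -0.048 (limma adjusted p = 0.933).

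The 150 bases before the start of Plagl1 and of Dlk1 are shown because both genes were far higher in passage-8 cells. They come from RefSeq in build GRCm38.p6 and are written along the gene, with each GC box (GGGCGG, or CCGCCC on the other strand) in capitals. The Plagl1 window is chr10:13090682-13090831 on the + strand and the Dlk1 window chr12:109452673-109452822 on the + strand.
Plagl1: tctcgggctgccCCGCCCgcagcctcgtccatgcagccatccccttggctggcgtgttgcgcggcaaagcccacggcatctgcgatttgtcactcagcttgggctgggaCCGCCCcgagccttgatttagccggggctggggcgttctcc
Dlk1: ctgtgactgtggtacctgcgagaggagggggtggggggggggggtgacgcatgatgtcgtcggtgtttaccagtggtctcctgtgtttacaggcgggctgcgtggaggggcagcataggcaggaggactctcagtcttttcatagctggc
The Plagl1 window holds 2 GC boxes and is 68% G and C, and the Dlk1 window holds 0 and is 61.3%. A GC box stood in 28.6% of all 32851 windows of this length, in 45.7% of the windows of genes higher in passage-8 cells and in 47.4% of those of genes lower, close to the 47.5% of all tested genes. For a CCAAT box (CCAAT or ATTGG) the shares were 24.6% and 23.2%, beside 26.6% of all tested genes. For a TATA box (TATAAA or TTTATA) they were 4.36% and 4.93%, beside 4.64%.

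**Figure D2:**
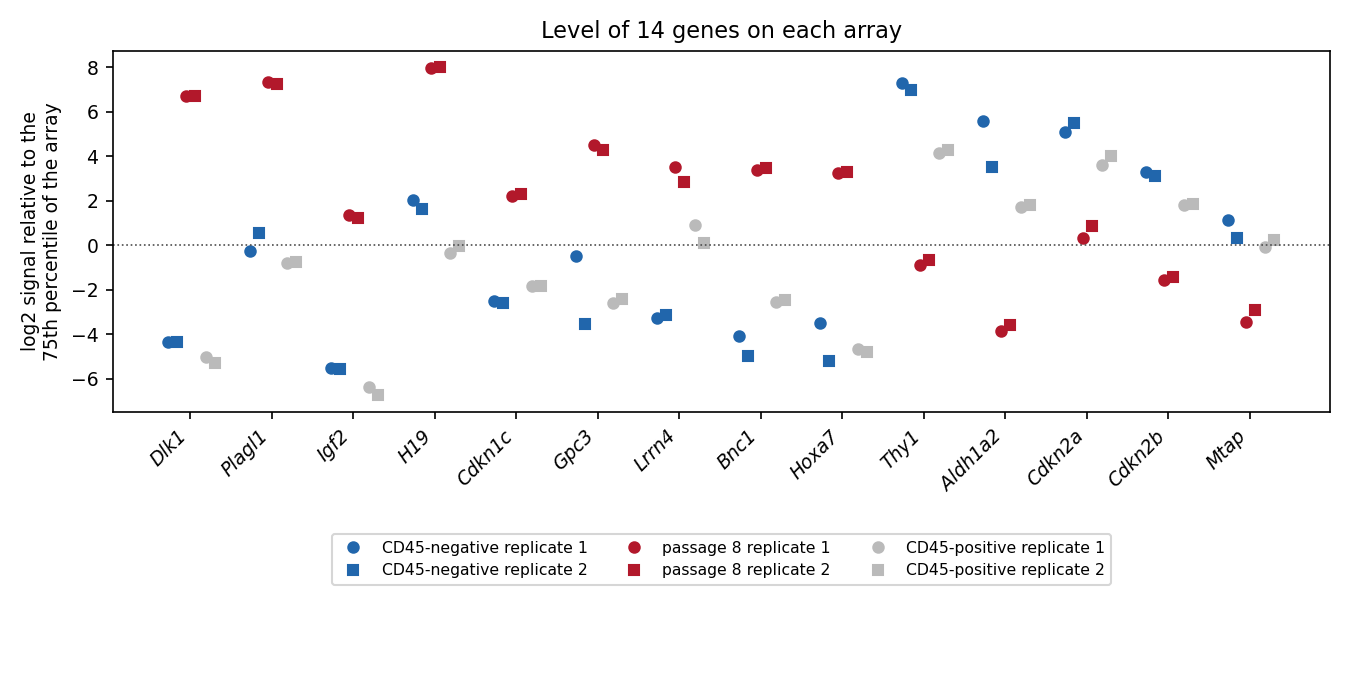
Log2 signal relative to the array's 75th percentile (vertical axis) of 14 genes on each array of CD45-negative (blue), passage-8 (red) and CD45-positive cells (grey), with circles for replicate 1 and squares for replicate 2. The passage-8 points lie together, above the CD45-negative points from Dlk1 to Hoxa7 and below them from Thy1 to Mtap. Gpc3 and Aldh1a2 show the widest gaps between the CD45-negative replicates.

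Genes of the mesothelium, the sheet that covers the heart and lines the body cavities, were among the strongest gains. Of 24 listed genes 21 were tested, 11 rose and 3 fell. Several risers were not well above background on both CD45-negative arrays and entered the test only through passage-8 cells. Such genes had to be higher to be tested, so the count is a description. Among the 13 members well above background on all 4 arrays, 4 rose and 2 fell. With passage-8 replicate 1 set aside, 10 rose and 2 fell, and with replicate 2 set aside, 10 and 2. Lrrn4, a leucine-rich membrane protein of mesothelial cells, was at -3.27 and -3.12 in CD45-negative cells and 3.51 and 2.83 in passage-8 cells (86.9-fold and 78.5-fold over replicates 1 and 2, limma adjusted p = 0.00112). Bnc1, a zinc finger factor of mesothelium and germ cells, was at -4.07 and -4.97 against 3.40 and 3.47 (248-fold, limma adjusted p = 0.000664). Bnc1 was not well above background on CD45-negative replicate 2, so its fold rests in part on a dim reading. Both genes separated the groups without overlap, as nearly all passing genes did.

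The surface proteins Upk3b and Upk1b, uroplakins shared by mesothelium and bladder lining, were not well above background in CD45-negative cells and were at least 47.3-fold and 29.1-fold higher in passage-8 cells. Msln, the gene of mesothelin, was at -1.61 and -2.49 against 2.27 and 2.21, and the epithelial keratins Krt18 and Krt7 had log2 differences of 4.65 and 6.25, with Krt7 at least 21.7-fold higher. The junction gene Cdh1 rose, at least 3.90-fold, Podxl, a sialomucin, at least 3.89-fold and the neuronal and mesothelial membrane protein Gpm6a 129-fold, though Gpm6a was not well above background on CD45-negative replicate 2. Several of these genes were already on in the CD45-positive cells, where Lrrn4, Upk3b, Upk1b and Msln had mean levels of 0.50, 0.37, 0.071 and 0.81. Upk3b in passage-8 cells did not pass against CD45-positive cells (log2 difference 0.62, limma adjusted p = 0.426).

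The fallers of this list were Tbx18 and Tcf21, transcription factors of epicardial progenitors and fibroblasts, and the matrix gene Efemp1. Tbx18 was at 2.03 and 2.01 against -0.36 and -0.54, Tcf21 at 1.81 and -0.32 against -1.85 and -1.99 and Efemp1 at 5.49 and 5.21 against 0.80 and 0.97. The median of the list was 3.26, or 2.07 with dim genes at their bound. Over the 13 members well above background on all 4 arrays it was -0.061, with 4 higher and 2 lower.

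Hox genes, which give cells of the embryo their place along the body axis and keep that code in adult fibroblasts, were raised across 3 of the 4 clusters. Of 39 listed genes 20 were tested, 18 rose and 0 fell, with a median log2 difference of 3.85, or 3.03 with dim genes at their bound. These were 6 of 8 tested genes of the Hoxa cluster, 7 of 7 of Hoxb and 5 of 5 of Hoxd, while none of the 9 Hoxc genes was bright enough to be tested. Of the risers, 13 entered the test only through passage-8 cells, 10 of them not well above background on either CD45-negative array, so they had to be higher to be tested and the count is a description. Over the 5 members above background on all 4 arrays, all of them risers, the median was 2.26, and over all tested members it was 1.80 with normexp background correction. Hoxa7 was at -3.48 and -5.20 against 3.26 and 3.28 (limma adjusted p = 0.00152), Hoxb7 at -4.33 and -5.13 against 1.34 and 1.43, and Hoxd4 was at least 41.2-fold higher. Hoxa7 and Hoxb7 were not well above background on CD45-negative replicate 2. Among the risers already well above background on all 4 arrays was Hoxb4 at -0.68 and -0.091 against 1.49 and 1.55. Without passage-8 replicate 1 or 2 the number of risers was 11 or 10.

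Transcription factors of heart development moved both ways, 3 higher and 2 lower of 17 tested. Irx3 and Irx5, homeobox factors of the ventricle and its conduction system, rose, Irx3 by a log2 difference of 1.91. Irx5 was not well above background on either CD45-negative array, so it had to be higher to be tested, and was at least 5.41-fold higher. Over the 14 listed factors well above background on all 4 arrays, 1 rose and 2 fell. Gata4 and Tbx20, core cardiac factors, fell, at 3.59 and 3.26 against 2.24 and 2.31 and at 3.04 and 3.56 against 0.92 and 1.05. Of 9 tested cardiomyocyte genes, the troponin gene Tnnt2 was at -2.07 and -0.42 against 2.42 and 2.43 and Tnni3 at -2.53 and -2.58 against -1.41 and -0.95, while the calcium pump Atp2a2 fell, with a log2 difference of -1.004. None of these 3 passed without passage-8 replicate 1 or without replicate 2. Of the transcription factors, 2 rose and 1 fell without passage-8 replicate 1 and 2 and 1 without replicate 2.

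Fibroblast and stromal genes that passed were all lower in passage-8 cells, and 10 did not pass. Of 22 listed genes, all tested, 12 fell and 0 rose, with a median log2 difference of -1.70 (10 fell and 1 rose without CD45-negative replicate 1, 12 fell without replicate 2, and 7 or 8 without passage-8 replicate 1 or 2). Thy1, a small surface glycoprotein that marks fibroblasts and stromal cells, was at 7.31 and 6.96 on CD45-negative replicates 1 and 2, among the brightest transcripts, and at -0.86 and -0.68 in passage-8 cells. This was 240.1-fold lower (log2 difference -7.91, SE 0.31, limma adjusted p = 0.000600), with the CD45-positive cells between them at 4.20.

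Other fallers of the list were Twist2, a factor of connective tissue, at 1.17 and 1.32 against -4.66 and -4.53, Ly6a, the stem cell antigen Sca-1, at 2.29 and 2.85 against -2.45 and -2.47, and S100a4, a calcium-binding protein of fibroblasts, at 8.12 and 8.14 against 3.68 and 3.74. Periostin (Postn), secreted in scars, fell 13.7-fold and the microfibril gene Fbn1 9.78-fold. Pdgfra, the receptor that marks cardiac fibroblasts, fell less, at 4.73 and 4.18 against 2.69 and 2.65. None of these genes overlapped between the groups, as was so for nearly all passing genes.

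Stromal surface antigens used in sorting had 1 higher and 9 lower of 22 tested. Besides Thy1 and Ly6a these included the TGF-beta co-receptor endoglin (Eng), at 2.72 and 2.28 against -1.48 and -1.42, and Cd200, an inhibitory ligand, which was not well above background in passage-8 cells and at least 348-fold lower. The CD45-negative replicates differed widely for Cd200, at 4.51 and 0.99. Over the 18 listed antigens well above background on all 4 arrays, 0 rose and 5 fell. Cd44, the hyaluronan receptor, fell little, at 3.47 and 3.36 against 2.40 and 2.32, and Cd24a rose, at -0.56 and 2.01 against 4.05 and 4.05. The counts were 0 higher and 5 lower when passage-8 replicate 1 was left out and 0 and 6 when replicate 2 was.

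Transcription factors and cadherins of the epithelial-mesenchymal transition leaned the same way, 6 lower and 2 higher of 14. Snai1 was at 3.79 and 3.40 against 1.76 and 1.62, Zeb2 at 2.84 and 2.94 against 1.15 and 1.20, Foxc2 at 2.53 and 2.32 against -1.90 and -1.81 and Sox9, also a cartilage factor, at 3.02 and 2.44 against -0.70 and -0.62. The cadherins split, with Cdh1 and Cdh11 higher and Cdh2 lower by a log2 difference of -1.28. Leaving out passage-8 replicate 1 gave 1 higher and 3 lower, and leaving out replicate 2 gave 1 and 3.

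**Figure D3:**
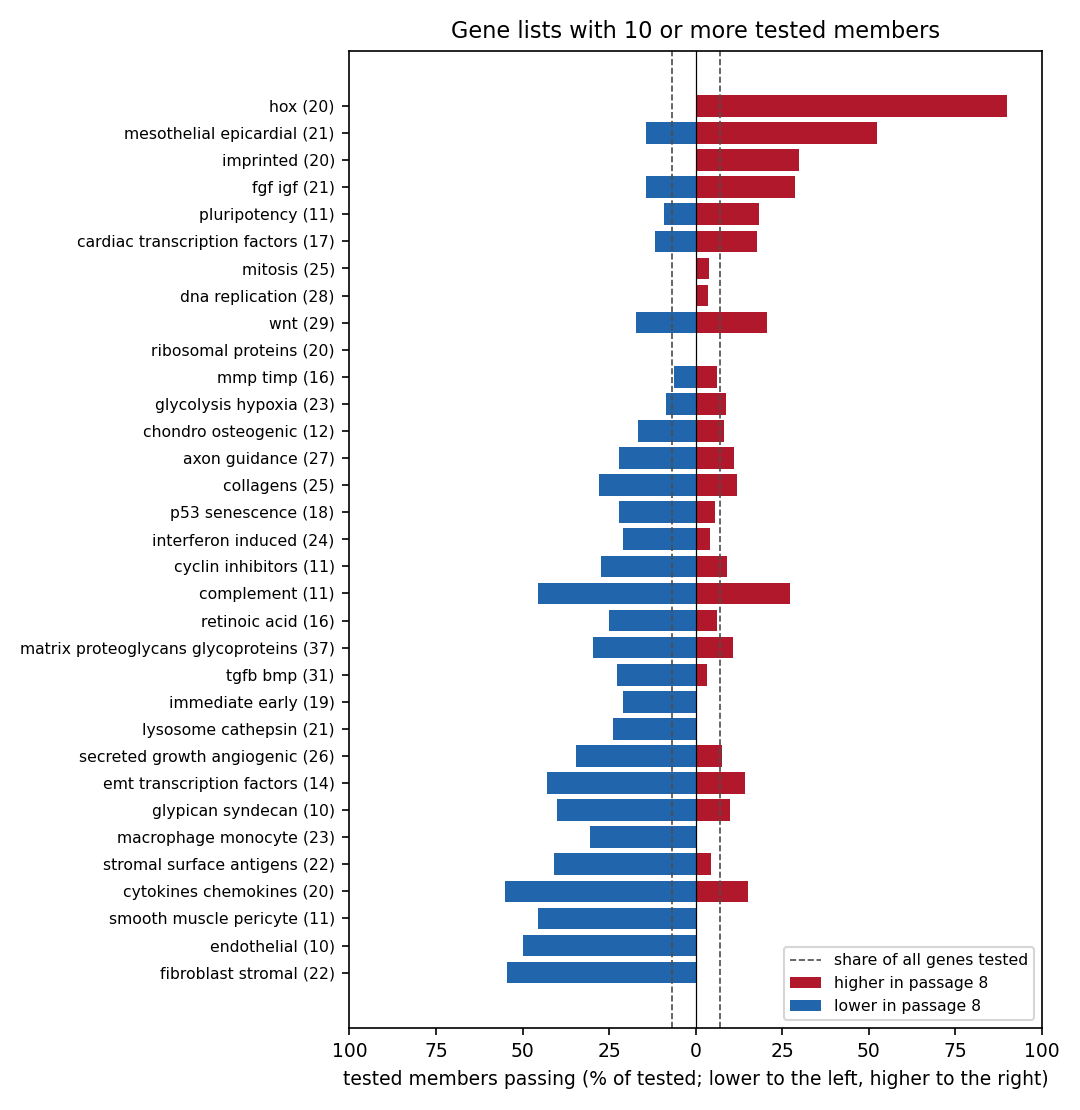
Share of the tested members of each gene list that were higher (red, right) or lower (blue, left) in passage-8 cells, for lists with 10 or more tested members, whose number is in brackets. Dashed lines mark 7.00% higher and 6.95% lower over all 22753 genes tested. The Hox, mesothelial and imprinted lists lean right, and the fibroblast, endothelial, smooth muscle and cytokine lists lean left. Some members entered the test only through the group where they were brighter.

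Retinoic acid, a vitamin A derivative that patterns the heart, is made in the epicardium by Aldh1a2, and this enzyme's gene was among the largest losses. Aldh1a2 was at 5.60 and 3.50 on CD45-negative replicates 1 and 2 and at -3.83 and -3.60 in passage-8 cells. The replicates differ in how far it fell, 635-fold from the first and 148-fold from the second (log2 difference -8.26, SE 0.71, limma adjusted p = 0.00235). The sister enzyme Aldh1a1 went the other way, at 3.67 and 2.77 against 5.29 and 5.28, and was the 1 riser among 16 tested genes of the pathway, against 4 that fell.

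Other fallers were the receptor Rarb, itself a target of retinoic acid (1.53 and 1.30 against -0.96 and -0.85), and the degrading enzyme Cyp26b1 (0.48 and 1.52 against -3.57 and -3.65). The receptors Rara, Rarg, Rxra and Rxrb did not pass, with log2 differences of 0.46, -0.60, 0.60 and 0.31. Aldh1a1 was thus bright in both groups and Aldh1a2 in CD45-negative cells alone, and retinoic acid itself was not measured. Of the 16 genes, 0 rose and 2 fell without passage-8 replicate 1 and 0 and 2 without replicate 2.

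Glypicans and syndecans, proteoglycans that hold growth factors at the cell surface, gave 1 higher and 4 lower of 10. Gpc3, a fetal glypican that restrains growth, was at -0.48 and -3.52 on CD45-negative replicates 1 and 2 and at 4.51 and 4.29 in passage-8 cells. It was higher than both, but by 29.6-fold over replicate 1 and 243-fold over replicate 2 (limma adjusted p = 0.0108), and it did not pass without passage-8 replicate 1 (limma adjusted p = 0.0540). Its second probe, dim in both groups, had a log2 difference of 1.04. Its relatives fell: Gpc4 at 1.19 and 0.20 against -2.02 and -1.93, Gpc6 at 0.044 and -0.66 against -3.08 and -2.42 and Sdc3 at 3.70 and 3.82 against 0.50 and 0.66. Sdc2 fell as well, with a log2 difference of -1.13. Sdc1, Sdc4, Gpc1, Gpc2 and Gpc5 did not pass. Of the 10 genes, 0 rose and 1 fell without passage-8 replicate 1 and 1 and 2 without replicate 2.

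Matrix genes fell more often than they rose, 11 against 4 of 37 glycoproteins and proteoglycans and 7 against 3 of 25 collagens. The basement membrane collagen Col15a1 was at 1.67 and 1.34 against -3.99 and -3.02 and the fibril-associated Col14a1 at 6.38 and 4.79 against 0.059 and 0.17. Lama2, a laminin chain of muscle, fell 36.4-fold, fibulin 1 (Fbln1) 21.2-fold and versican (Vcan) 8.81-fold. The fibrillar collagen Col3a1 stayed bright, at 8.52 and 8.17 against 6.96 and 6.88. Against this, fibromodulin (Fmod), a collagen-binding proteoglycan of tendon, rose, at -2.89 and -3.48 against 2.85 and 3.03 and Lama5 and Lama1, laminin chains of epithelial basement membrane, had log2 differences of 2.58 and 2.88. When either passage-8 array was left out, 6 of the glycoproteins fell and 3 rose, and 2 of the collagens fell and 0 rose. Of 16 tested matrix proteases and inhibitors, the collagenase Mmp13 rose, at -6.77 and -3.30 against 1.66 and 1.68, and the inhibitor Timp1 fell, at 7.91 and 8.96 against 5.66 and 5.72, and neither passed without passage-8 replicate 1 or without replicate 2.

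Inflammatory ligands were lower in passage-8 cells, 11 of 20 tested cytokine and chemokine genes against 3 higher. Cxcl14, a chemokine of epithelia and fibroblasts, was at 4.82 and 2.26 against -3.81 and -4.37, Cxcl5, which draws neutrophils, at 2.91 and 3.57 against -0.68 and -0.59, and Ccl2, which draws monocytes, at 5.50 and 5.32 against 3.21 and 3.11. Il6 fell 6.11-fold and the epithelial cytokine Tslp 17.6-fold. The risers were the alarmin Il33, at 1.76 and 2.40 against 5.18 and 5.29, the stromal chemokine Cxcl12, at 6.65 and 6.56 against 8.25 and 8.27, and Cxcl10. With passage-8 replicate 1 set aside, 1 rose and 6 fell, and with replicate 2 set aside, 1 and 7.

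Growth and vessel-forming factors showed 9 lower and 2 higher of 26. Hepatocyte growth factor (Hgf) was at 0.69 and 2.26 against -1.42 and -1.62 and Vegfc, which grows lymph vessels, at 3.86 and 3.23 against 1.03 and 0.90. Pdgfc, a ligand of platelet-derived growth factor receptors, rose, at -1.25 and -0.60 against 2.81 and 2.77. The counts were 1 higher and 4 lower when passage-8 replicate 1 was left out and 1 and 4 when replicate 2 was.

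In the TGF-beta and BMP pathway 7 genes fell and 1 rose of 31. The activin subunits Inhba and Inhbb were at 3.73 and 4.28 against 1.33 and 1.46 and at 4.40 and 5.57 against 1.76 and 1.92, the antagonist follistatin (Fst) at 2.26 and 1.98 against -0.11 and -0.13, and the inhibitory Smad6 and Smad7 had log2 differences of -1.86 and -1.23. The BMP binder Chrdl2 rose, at -3.05 and -0.28 against 2.53 and 2.55. The fallers thus included ligands, an antagonist and intracellular inhibitors, while 23 of the 31 genes did not pass. Leaving out passage-8 replicate 1 gave 0 higher and 1 lower, and leaving out replicate 2 gave 0 and 1.

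Wnt pathway genes split, 6 higher and 5 lower of 29. Over the 23 members well above background on all 4 arrays, 2 rose and 5 fell. The count of risers thus rests in part on genes that were dim in CD45-negative cells. Of the secreted antagonists, Frzb was at 4.94 and 3.42 against -2.07 and -1.63 and Dkk2 at -1.003 and 1.23 against -5.25 and -4.46, while Sfrp2 was at -2.33 and -6.06 against 1.01 and 0.95. The log2 difference of Sfrp2 was 5.17, and 3.31 to 7.04 with 1 array left out. Sfrp2 and Dkk1 were the only antagonists that rose. The ligand Wnt9a rose by a log2 difference of 2.22 and Wnt11 had one of -2.14. Of the 6 risers, Wnt6 and Dkk1 were dim and turned to -0.48 and -0.58 with normexp background correction. With passage-8 replicate 1 set aside, 1 rose and 1 fell, and with replicate 2 set aside, 2 and 1.

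FGF and IGF genes showed 6 higher and 3 lower of 21. Besides Igf2, the binding proteins Igfbp3 and Igfbp4 rose, at -3.05 and -0.62 against 2.14 and 2.23 and at 0.29 and 1.26 against 3.53 and 2.99, and Igf1 rose, at 2.63 and 2.35 against 3.76 and 3.87. Igfbp7, a secreted protein of vessels and arrested cells, fell, at 4.39 and 4.14 against 1.32 and 1.24, and the receptor Fgfr1 fell, with a log2 difference of -1.03. Fgf5, dim throughout, turned from 1.83 to -0.41 with normexp background correction. The counts were 2 higher and 1 lower when passage-8 replicate 1 was left out and 2 and 1 when replicate 2 was.

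Complement genes moved strongly in both directions, 3 higher and 5 lower of 11. The components C1s1, C1ra and C3, which start and amplify the cascade, rose, with C1s1 at 2.26 and 2.20 against 5.69 and 5.66 and C3 at 5.45 and 6.43 against 7.74 and 7.76. Several of the fallers restrain it: the C1 inhibitor Serping1 was at 5.27 and 4.80 against 0.25 and 0.17, the membrane shield Cd59a at -0.42 and -0.49 against -4.30 and -4.28 and Cd55 at 2.01 and 1.87 against 0.44 and 0.52. Factor B (Cfb), also lower, belongs to the alternative pathway and had a log2 difference of -2.45. Leaving out passage-8 replicate 1 gave 1 higher and 3 lower, and leaving out replicate 2 gave 1 and 3.

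Among markers of other cell types, most did not pass, and the calls that were made differed by list. Endothelial genes had 5 lower and 0 higher of 10, with the junction gene Cdh5 not well above background in passage-8 cells and at least 10.1-fold lower. Lyve1 was not well above background there either, and such genes had to be lower to be tested. Over the 8 endothelial members well above background on all 4 arrays, 2 fell and 0 rose. Smooth muscle and pericyte genes had 5 lower and 0 higher of 11, with Pdgfrb at 4.95 and 5.10 against 2.997 and 2.90, Notch3 at 3.28 and 3.46 against 0.46 and 0.44 and Cspg4, the pericyte proteoglycan NG2, at -0.51 and 0.19 against -5.43 and -4.81. Cspg4, Abcc9 and Synpo2 were not well above background on passage-8 replicate 1, so they had to be lower to be tested. Over the 8 smooth muscle and pericyte members well above background on all 4 arrays, 2 fell and 0 rose. The other lists of other cell types had 3 lower and 0 higher of 5 (neutrophil), 1 and 0 of 4 (mast cell, Hdc), 0 and 1 of 3 (erythroid, Epor), 2 and 0 of 6 (Schwann cell and neural crest) and 1 and 2 of 5 (fat cell). The mast cell median was 0.76 against CD45-negative replicate 1 and -2.18 against replicate 2. Epor had a log2 difference of 1.13, and 0.71 to 1.38 over the alternative settings. The fallers Ly6g (neutrophil) and Ngfr (Schwann cell) were not well above background on passage-8 replicate 1. The 4 tested lymphocyte genes had a median log2 difference of -0.56. Of 8 tested genes of class II antigen presentation H2-Ab1 fell, of 5 natriuretic genes Nppc fell, and of 12 cartilage and bone genes Scx, a tendon factor, rose and Alpl and Sox9 fell. Of the endothelial genes, 0 rose and 3 fell without passage-8 replicate 1 and 0 and 3 without replicate 2. Of the smooth muscle and pericyte genes, 0 rose and 4 fell without passage-8 replicate 1 and 0 and 5 without replicate 2.

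Of 23 tested macrophage genes 7 fell and 0 rose, and this group rests on the CD45-negative replicate used. Its median log2 difference was -1.05 against replicate 1 and -4.21 against replicate 2, with 2 higher and 6 lower in the first case and 19 lower in the second. Without passage-8 replicate 1 or 2, 1 was lower. Over the 14 macrophage genes well above background on all 4 arrays, 3 fell and 0 rose. C1qc, a complement chain made by tissue macrophages, was at -1.33 and 2.87 in CD45-negative cells and at -7.84 and -7.55, not well above background, in passage-8 cells, and at a mean of 7.21 in CD45-positive cells. The list's summed signal was 69.0 and 173 times the 75th percentile on the CD45-negative arrays, 37.1 and 38.2 on the passage-8 arrays and 2377 and 2406 on the CD45-positive arrays, with 16 and 19 of 29 members well above background in passage-8 cells. Most of the passage-8 sum was 1 gene, the integrin Itgam, at 5.84 and 6.07 against 4.80 and 4.83, whose other 2 probes were dim, at -3.81 to -3.78 on passage-8 replicate 1. Without Itgam the sums were 11.9 and 106 on the CD45-negative and 9.25 and 9.78 on the passage-8 arrays. The part of macrophage RNA in the lower chemokine and lysosome genes was not tested. Of 21 tested lysosome genes 5 fell, cathepsin H (Ctsh) most, at 5.70 and 5.18 against 2.05 and 2.15. Of the lysosome genes, 0 rose and 1 fell without passage-8 replicate 1 and 0 and 1 without replicate 2.

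Passage-8 cells had far less signal from the Cdkn2a and Cdkn2b locus, whose products p16, p19 and p15 halt the cell cycle. Cdkn2a was at 5.11 and 5.51 in CD45-negative cells and 0.31 and 0.85 in passage-8 cells, 23.1-fold and 30.5-fold below replicates 1 and 2 (log2 difference -4.73, SE 0.87, limma adjusted p = 0.0214). Its second probe fell, with a log2 difference of -5.77. Cdkn2b was at 3.29 and 3.12 against -1.55 and -1.43 (limma adjusted p = 0.00144) and the neighbour Mtap, an enzyme of methionine salvage, at 1.12 and 0.34 against -3.45 and -2.91 (limma adjusted p = 0.00296). In the CD45-positive cells the means were 3.80, 1.84 and 0.076. Cdkn2a did not pass without passage-8 replicate 1 or 2, CD45-negative replicate 2 or either CD45-positive array, with adjusted p up to 0.0971, while its log2 difference stayed between -4.998 and -4.46 with any 1 array left out.

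The neighbourhood was then read in order, a step chosen after the values of these genes were seen. The probe of Cdkn2a lies on chromosome 4 at 88920405 to 88920464 in build mm9, and 36 tested features have a probe within 1 Mb of it. Of these, 6 fell by more than 3 log2 units, from -4.73 to -3.92, and all 6 lie within 528 kb: Mtap, Cdkn2a, Cdkn2b and 3 features known only by clone or region names. The 5 others inside that stretch differed by -0.65 to 0.99 and were dim, at -3.68 to -2.14 on the CD45-negative arrays. Of the 6 fallers, 1 feature with a region name was about as dim there, at -3.23 and -2.16, against -7.05 and -6.40. Beyond it, 25 features differed by -2.78 to 1.85, of which 4 passed as lower and 1 as higher. The lower ones were the predicted genes Gm13284, Gm13272 and Gm13275, with log2 differences of -2.45, -2.52 and -2.40, and a feature with a region name, at -1.43. Gm13272 was at 2.73 and 0.82 against -0.83 and -0.66, so falls were not limited to the stretch. The coding neighbours Klhl9, Focad and Hacd4 did not pass, with Klhl9 at 4.73 and 4.30 against 3.77 and 3.86, Focad at 1.71 and 1.29 against 1.87 and 1.79 and Hacd4 at 1.52 and 0.93 against 0.96 and 0.86. The arrays measured RNA alone.

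**Figure D4:**
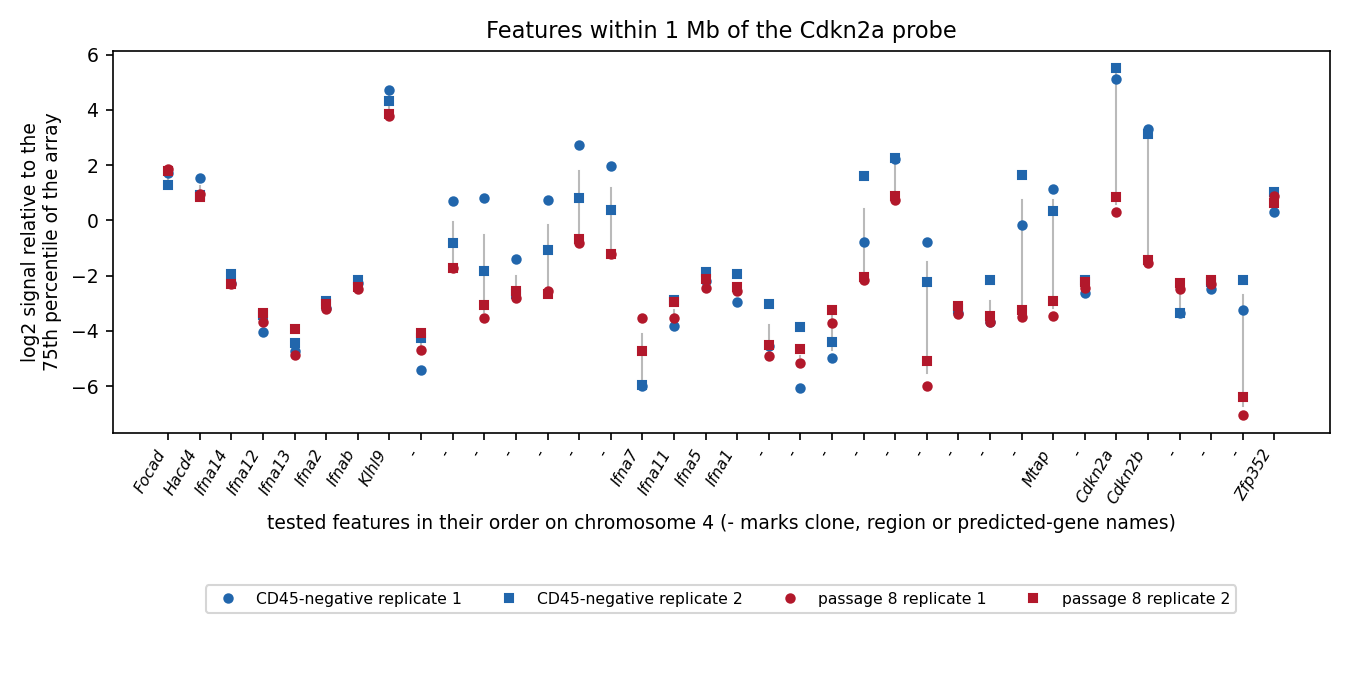
Log2 signal relative to the array's 75th percentile (vertical axis) of the 36 tested features with a probe within 1 Mb of that of Cdkn2a, in their order on chromosome 4 (horizontal axis, not to scale), in CD45-negative (blue) and passage-8 cells (red), with circles for replicate 1, squares for replicate 2 and grey lines joining the means. Drops of more than 3 log2 units lie around Mtap, Cdkn2a and Cdkn2b, smaller ones lie to their left, and Klhl9, Focad and Hacd4 differ by less than 1 log2 unit.

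The 150 bases before each listed start of these genes, from RefSeq in build GRCm38.p6, are shown because the genes fell together from neighbouring starts. GC boxes are in capitals as above. The windows are chr4:89137220-89137369 (+ strand), chr4:89294620-89294769 and chr4:89282193-89282342 (- strand) and chr4:89311033-89311182 (- strand).
Mtap: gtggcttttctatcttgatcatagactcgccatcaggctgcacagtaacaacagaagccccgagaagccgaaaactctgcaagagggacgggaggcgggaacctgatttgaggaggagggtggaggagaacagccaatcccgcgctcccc
Cdkn2a, outer start: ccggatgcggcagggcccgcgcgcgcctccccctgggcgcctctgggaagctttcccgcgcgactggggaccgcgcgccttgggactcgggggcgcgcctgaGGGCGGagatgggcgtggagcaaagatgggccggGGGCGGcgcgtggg
Cdkn2a, inner start: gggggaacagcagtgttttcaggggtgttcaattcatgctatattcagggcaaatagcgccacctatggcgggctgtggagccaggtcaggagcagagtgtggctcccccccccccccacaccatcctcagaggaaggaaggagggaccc
Cdkn2b: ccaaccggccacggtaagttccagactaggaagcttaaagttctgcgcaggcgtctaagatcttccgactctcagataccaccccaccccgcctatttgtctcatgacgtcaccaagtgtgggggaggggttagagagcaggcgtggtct
The outer start of Cdkn2a has 2 GC boxes and 78.7% G and C, and the other 3 windows have 0, with 56.7%, 60% and 56%. A GC box was therefore found at the outer start of Cdkn2a alone among these windows.

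Few genes of the cell cycle machinery passed the test, beside 7.00% of all genes tested as higher and 6.95% as lower. Counts this small do not set such a list apart from all genes. Of 25 mitosis genes 1 rose and 0 fell, the centromere histone Cenpa, at 1.56 and 1.22 against 2.70 and 2.85. Of 28 DNA replication genes 1 rose and 0 fell, the licensing factor Cdt1, at 2.87 and 2.77 against 4.02 and 4.06. Neither gene passed without passage-8 replicate 1 or without replicate 2, and 3 replication genes rose without CD45-negative replicate 1. The medians of these lists were 0.39 and 0.34. Among 11 cell cycle inhibitors Cdkn1c rose and Cdkn2a, Cdkn2b and Mtap, listed with them for its place, fell, while the p53 target Cdkn1a was at 3.35 and 3.50 against 1.49 and 1.61 (limma adjusted p = 0.0710). Of 18 p53 and senescence genes 4 fell and 1 rose, with Igfbp7 among the fallers and Igfbp3 the riser. The 20 ribosomal protein genes had a median of -0.18. Of the p53 and senescence genes, 0 rose and 1 fell without passage-8 replicate 1 and 0 and 1 without replicate 2.

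Genes of whole chromosomes leaned together in passage-8 cells. On chromosome 4 the median log2 difference of 1396 tested genes was -0.38, with 30.4% of genes above 0 and 13.5% passing as lower. On chromosomes 6, 10 and 19 the medians were 0.30, 0.28 and 0.37, with 63.2%, 63.0% and 69.7% of genes above 0 and 17.7% passing as higher on chromosome 19. The other 15 autosomes and chromosome X had medians of -0.079 to 0.037, 45.9% to 52.1% of genes above 0, 5.15% to 8.13% lower and 5.05% to 7.88% higher. These 4 chromosomes were singled out after all values were seen, and no test is given.

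The lean was seen against each CD45-negative array. Against CD45-negative replicates 1 and 2 the median was -0.30 and -0.43 on chromosome 4, 0.30 and 0.29 on chromosome 6, 0.31 and 0.28 on chromosome 10 and 0.40 and 0.39 on chromosome 19. It ran along each chromosome too. In stretches of 20 Mb with at least 20 tested genes, the median was below 0 in 8 of 8 stretches of chromosome 4 and above 0 in 8 of 8, 7 of 7 and 4 of 4 of chromosomes 6, 10 and 19, against 42 of 114 stretches above 0 elsewhere.

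The same 4 chromosomes stood apart when passage-8 cells were set against the CD45-positive cells, which share the passage-8 arrays. Their medians there were -0.12, 0.43, 0.48 and 0.55, and 0.098 to 0.28 on the others. Between the primary groups, CD45-negative minus CD45-positive cells, all 20 chromosomes lay between 0.15 and 0.30. Normexp background correction moved the median of all genes to -0.25, and chromosomes 6 and 10 then lay at -0.038 and -0.00095, still above it.

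**Figure D5:**
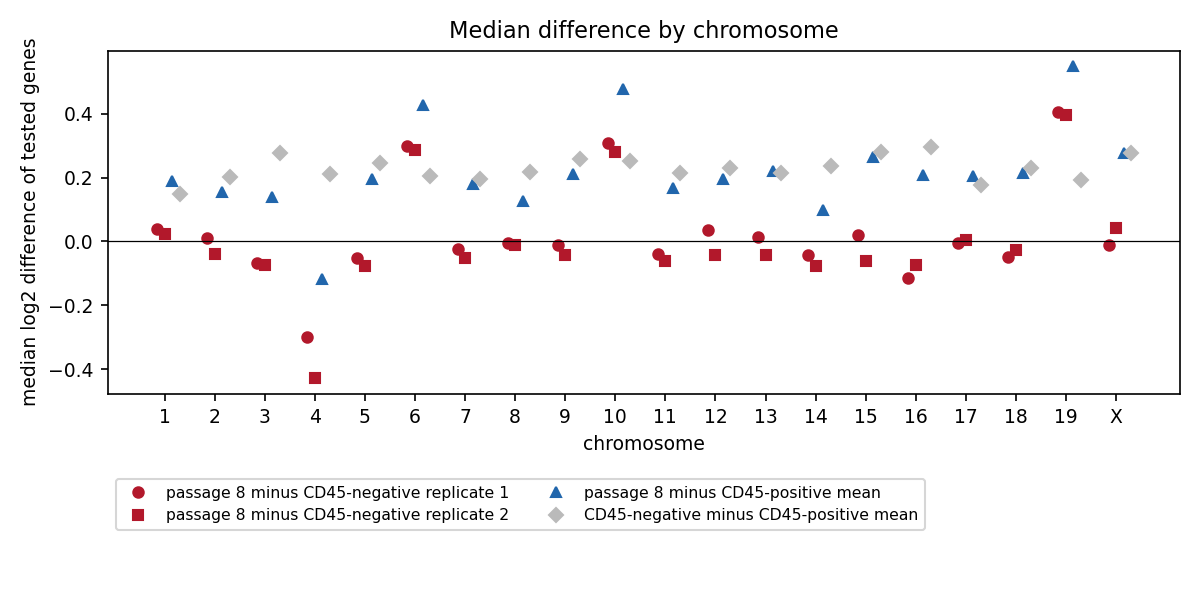
Median log2 difference of the tested genes of each chromosome (horizontal axis; Y, with 11 tested genes, is left out) between passage-8 cells and each CD45-negative array (red circles and squares), between passage-8 and CD45-positive cells (blue triangles), and between CD45-negative and CD45-positive cells (grey diamonds). Chromosome 4 lies below and chromosomes 6, 10 and 19 lie above the rest in the comparisons with passage-8 cells, while the grey diamonds run between 0.15 and 0.30.

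Of 4 tested genes of the sex-linked list 2 fell, both Y-linked. The genes Ddx3y and Eif2s3y were at 1.51 and 0.95 against -1.49 and -1.52 and at 2.88 and 2.45 against -0.20 and 0.00064 (limma adjusted p = 0.00639 and 0.00239), and Uty had a log2 difference of -2.90 without passing. XIST, the design's name for 5 probes at the gene of the RNA that silences 1 X chromosome in female cells, was at 0.93 and 3.53 in CD45-negative cells by its brightest probe, which was not well above background in passage-8 cells and at least 227-fold lower. Another of the 5 probes was above background on passage-8 replicate 2, at -4.27 against 0.041 and 2.99 on the CD45-negative arrays. Of the separate probes named Xist the brightest was above background on passage-8 replicate 1, had a log2 difference of -4.94 and did not pass. Transcripts of the Y chromosome and of XIST were both well above background on each CD45-negative array.

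Among the other genes with the largest gains were Cyp2s1, a cytochrome P450, at -2.27 and -1.43 against 4.29 and 4.29, Itih4, a plasma protein of the inter-alpha-trypsin inhibitor family, at -4.37 and -2.39 against 1.77 and 1.85, Crybg1, at 0.069 and -1.78 against 4.63 and 4.65, and the proton pump subunit Atp6v0e2, at -2.78 and -2.31 against 2.43 and 2.27. The transcription factor Dmrt2, the phosphatase subunit Ppp2r2b and Ddc, which makes dopamine and serotonin, were not well above background in CD45-negative cells and at least 96.3-fold, 77.1-fold and 70.6-fold higher. Among the deepest falls were Smim41, at 4.88 and 4.73 against -3.60 and -3.41, Ndufa4l2, a hypoxia-induced mitochondrial gene, at 5.57 and 5.33 against -2.38 and -2.05, the axon guidance ligand Sema7a, at 1.49 and 3.96 against -4.21 and -4.54, and Brinp1, at 1.95 and 1.84 against -5.29 and -4.84. Esm1, an endothelial proteoglycan, Scin, which severs actin, Arhgap6 and the muscle caveolin Cav3 were not well above background in passage-8 cells, with falls of at least 252, 335, 225 and 168 times. Ecrg4 and Fxyd6 fell too, 393-fold and 343-fold against CD45-negative replicate 1 but 79.3-fold and 45.9-fold against replicate 2.

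Axon guidance genes, which also steer migrating cells, moved both ways, 3 higher and 6 lower of 27. Over the 24 members well above background on all 4 arrays, 1 rose and 5 fell. The slit receptors Robo1 and Robo2 were at 2.08 and 1.996 against -1.9997 and -1.86 and at -1.51 and -2.67 against -5.27 and -4.42, and the netrin Ntn1 was at least 11.9-fold lower, while the repellent Sema3a rose, at -0.97 and -0.78 against 2.11 and 2.10. Ntn4, another riser, turned to -0.10 with normexp background correction. Hypoxia and glycolysis genes held 2 risers, Car9 and Ndrg1, and 2 fallers, Adm and Aldoc, of 23, with the vasodilator peptide Adm at 4.85 and 3.65 against -0.74 and -0.53. Interferon-induced genes had 5 lower and 1 higher of 24 and immediate early genes 4 lower and 0 higher of 19, among them Dusp1 and Fosb at log2 differences of -2.75 and -2.85. Pluripotency genes had 2 higher, Tfcp2l1 and the telomerase gene Tert, and 1 lower, Dnmt3l, of 11. Over the 8 members well above background on all 4 arrays, 1 rose and 1 fell. The log2 difference of Tert was 1.21, and 0.26 to 1.53 over the alternative settings. Of the axon guidance genes, 1 rose and 1 fell without passage-8 replicate 1 and 1 and 3 without replicate 2. Of the interferon-induced genes, 0 rose and 0 fell without passage-8 replicate 1 and 0 and 0 without replicate 2. Of the immediate early genes, 0 rose and 2 fell without passage-8 replicate 1 and 0 and 2 without replicate 2.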

How the data were processed

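RNA of 8 samples (200 ng each, Cy3) was read on 1-colour Agilent arrays. Per the file headers, the deposited values are spot intensities that the scanner software had corrected for background, and the submitters' processing notes name Agilent Feature Extraction 10.7. The authors also deposited a log2 table of the same arrays, used here only as an alternative. Control spots and outlier spots were left out, spots of a probe were averaged, and log2 intensity minus the array's 75th percentile was taken. The brightest probe stood for a gene. Genes well above background on both arrays of either group were tested with limma 3.58.1 in R 4.3.3 on all 8 arrays (4 residual degrees of freedom), two-sided, with Benjamini-Hochberg adjustment over all 22753 genes. The procedure was checked on simulated data. Probe positions are in build mm9 and promoters in GRCm38.p6, and the builds were not mixed.

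The samples, gene lists and marker genes were chosen with earlier results of these data known. Named were 6 marker genes, Kit and Ptprc, the 10 highest and 10 lowest passing genes above background on all 4 arrays, the 6 highest bounds and replicate gaps each way, up to 6 passing genes per direction of each list, and any member of 5 lists (imprinted, retinoic acid, glypican and syndecan, cell cycle inhibitor, sex-linked). Col3a1, Ccl2, Cd44, Il6, Krt18, Msln, Pdgfra, Podxl, Smad7, Hoxb4, Gm13284, Gm13272, Gm13275, Klhl9, Focad and Hacd4 were named after their values were seen. The labels do not say whether replicate numbers pair the samples. The correlation of replicate deviations between CD45-negative and passage-8 cells was 0.171, and -0.115 to 0.158 for the other pairs of groups. These values cannot settle whether samples were paired. The 75th percentile signal was 426 to 521 on CD45-negative and 974 to 976 on passage-8 arrays, and 51.5% to 69.9% of probes were well above background. The number of arrays limits the precision. Some genes are not reported here.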

Additional observations from a re-analysis of the deposited data

How the results depend on the processing

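The 1593 genes higher and 1581 lower became 973 and 943 with centring on the median, 950 higher with only genes well above background on all 4 arrays, 1005 higher with array weights, and 76 and 105 with the 4 arrays alone. With 1 array left out, they ranged from 310 to 2204 higher and 471 to 2305 lower. With the replicate number as a block they were 1325 and 1343, though it is not known whether the numbers pair the samples. Normexp background correction gave 1090 higher and 2331 lower (31.9% higher) and quantile normalization 1951 and 1581 (55.2%). Normexp turned the sign of Zdbf2 (-0.55), Wnt6 (-0.48), Dkk1 (-0.58), Fgf5 (-0.41), Ntn4 (-0.10), the erythroid median (-0.66, and -1.01 with no filter) and the medians of chromosome 6 (-0.038) and chromosome 10 (-0.00095). Averaging the probes of a gene gave Ctsd 0.0145, and the mesothelial median was -0.061 over genes above background on all 4 arrays. The cause was not tested. Of 229 named genes, 69 moved by over 1.5 times with 1 array of either group left out.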
